A study of Rattus norvegicus with 9 samples.

Results

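In 3 of the 9 rat endometrial libraries of the series the surface mucin gene Muc1 was several times as abundant as in the other 6, and this division did not follow the treatment groups. The high-Muc1 libraries were selected on the Muc1 read count alone: a library was called high above 30 CPM (read counts scaled to the library's total) and low under 20 CPM. They were NER replicate 3, LER+LIG replicate 2 and LER+LIG replicate 3. The 6 low libraries were NER replicates 1 and 2, all 3 LER libraries and LER+LIG replicate 1. Because the split was made on a readout of the same libraries, the comparison of high with low libraries is a description of 3 and 6 libraries and has no test.

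Muc1 encodes a large transmembrane mucin that coats the apical side of uterine luminal and glandular epithelium. In rodents it is known to be high under oestrogen and to decline under progesterone, when the uterus becomes receptive to the embryo. The rodent endometrium passes within days from an oestrogen-led state, in which epithelium proliferates and secretes, to a progesterone-led state, in which epithelial Indian hedgehog signals to the stroma and stromal cells prepare to decidualise. This is background and not a result of these libraries.

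All libraries came from female Sprague-Dawley rats of 10 weeks that had been mated. NER rats had saline before mating and olive oil by gavage after it. For 10 days LER rats were given hydroxyurea, an inhibitor of deoxynucleotide synthesis, by mouth at 450 mg/kg/d, and adrenaline at 0.3 mg/kg/d under the skin from day 4 to day 10, followed by olive oil. LER+LIG rats were treated as LER rats before mating and afterwards received LIG, ligustilide in the series title, at 40 mg/kg/d by gavage from day 0.5 of gestation, the morning of the vaginal plug. The sources used here give neither the day of tissue collection nor the number of animals behind each library, so tests over libraries measure the spread between these libraries. The tissue is labelled uterus in one field and endometrium in the titles.

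Each library held between 13241537 and 15354085 counts over 22250 gene rows. Mitochondrially encoded genes took 2.14% to 5.46% of the counts. LER+LIG replicate 1, a low library, had the fewest genes with a count, 14944 against 15468 to 16198 in the others. Every difference below is the median of log2(CPM + 1) over the 3 high libraries minus that over the 6 low ones, over the 13621 genes other than Muc1 with a mean of at least 1 CPM. Groups were said not to overlap where all 3 high libraries lay above, or all 3 below, all 6 low libraries.

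Muc1 was at 11.3, 12.8 and 62.3 CPM in NER replicates 1 to 3, at 8.24, 10.0 and 8.95 CPM in LER, and at 10.7, 104.9 and 36.9 CPM in LER+LIG. LER had no high library, and NER and LER+LIG each held both kinds. The library just inside the rule was LER+LIG replicate 3, with an exact 95% interval of 33.7 to 40.4 CPM from its 489 counts, and the one just outside was NER replicate 2, with 11.1 to 14.8 CPM from 197 counts. These intervals cover counting error only. None of the 6 low libraries can be ordered with confidence from its neighbour: their intervals, from 6.82 to 14.8 CPM in all, overlap in a chain. The same 3 libraries were high and the same 6 low with TMM factors, with DESeq2 size factors and with CPM computed without mitochondrially encoded genes.

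**Figure D1:**
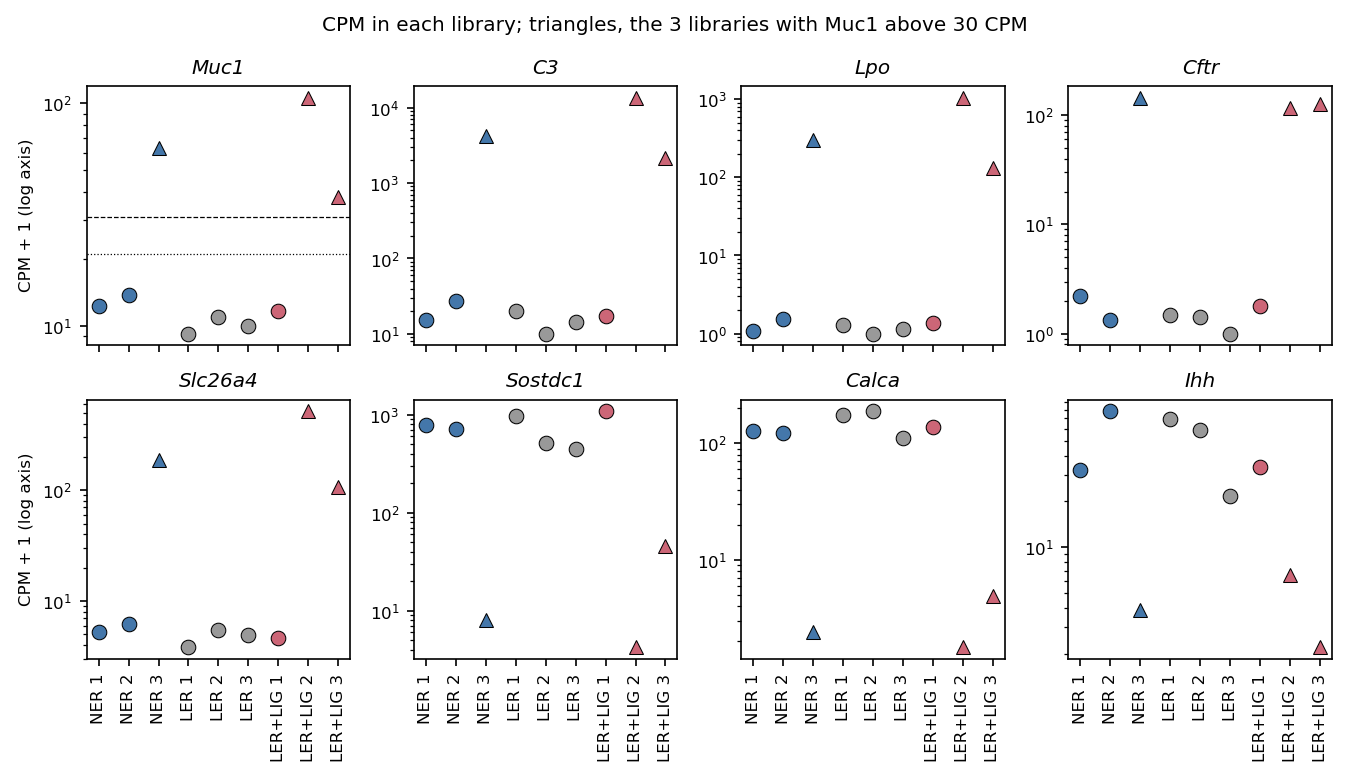
Values of Muc1 and 7 other genes in each of the 9 libraries, as CPM + 1 on a log axis, with triangles for the 3 libraries above 30 CPM of Muc1 and circles for the 6 below 20 CPM. Dashed and dotted lines in the Muc1 panel mark 30 and 20 CPM. The 3 triangles stand above all circles for C3, Lpo, Cftr and Slc26a4 and below all circles for Sostdc1, Calca and Ihh.

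The promoters of Muc1, of the complement gene C3 (high in the same libraries) and of the calcitonin gene Calca (low in them) are shown because these 3 genes frame the split. Each is the run of 250 bases before the RefSeq start site of assembly GRCr8, 5′ to 3′ on the gene's strand, and capitals mark the letters GGTCA or their reverse complement, the core of an oestrogen response element.
Muc1, chr2:176933500-176933749, plus strand: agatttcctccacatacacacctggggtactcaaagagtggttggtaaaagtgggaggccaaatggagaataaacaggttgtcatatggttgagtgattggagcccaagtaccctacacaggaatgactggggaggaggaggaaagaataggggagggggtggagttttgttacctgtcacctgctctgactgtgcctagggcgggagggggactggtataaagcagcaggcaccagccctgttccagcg
C3, chr9:2201340-2201589, minus strand: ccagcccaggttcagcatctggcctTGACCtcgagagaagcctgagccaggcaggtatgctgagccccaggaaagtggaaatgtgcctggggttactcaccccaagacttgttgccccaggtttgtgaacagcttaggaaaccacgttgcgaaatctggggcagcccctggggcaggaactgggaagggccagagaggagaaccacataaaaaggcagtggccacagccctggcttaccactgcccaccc
Calca, chr1:178317530-178317779, minus strand: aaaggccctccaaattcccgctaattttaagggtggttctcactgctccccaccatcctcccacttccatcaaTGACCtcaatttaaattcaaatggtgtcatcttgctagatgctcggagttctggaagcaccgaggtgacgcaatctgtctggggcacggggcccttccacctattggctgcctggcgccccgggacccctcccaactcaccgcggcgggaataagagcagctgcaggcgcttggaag
The 5 letters GGTCA were found on either strand in 35.2% of 27457 promoters of that length, in 6 of the 10 promoters available for the 12 leading higher genes below and in 5 of the 7 available for the 12 leading lower genes. Muc1 held 0 and C3 and Calca 1 each. The palindrome GGTCANNNTGACC was in 0.0219% of all promoters, 6 in number, and in 0 of these 17. These are matches of letters in a short window and show nothing about binding.

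The high libraries differed from the low ones in a broad set of genes. In 1376 of the 13621 genes (10.1%) all 3 high libraries were above all 6 low ones, and in 1131 (8.3%) they were below. The difference of medians was at least 1 on the log2 scale in 725 of the higher and 459 of the lower genes, and at least 5 in 15 and 11. Over all 13621 genes the median difference was -0.04, with 46.4% of genes higher and 53.5% lower. The genes without overlap in the higher direction took 10.6% to 13.5% of all counts in the high libraries and 4.04% to 5.12% in the low ones. Those in the lower direction took 6.22% to 7.40% in the high libraries and 12.3% to 14.5% in the low ones. Both sets were chosen for no overlap, so their shares had to separate, and only the size of the shares is informative. With fewer libraries fewer orders can break a separation, so the lower count became 1972 when LER+LIG replicate 2 was left out and 1791 when replicate 3 of that treatment was. The mean minimum admits 249 genes through the high libraries alone and 309 through the low ones alone, and such genes had to differ. Counts of list members below are set against the shares over all genes, 10.1% higher and 8.3% lower without overlap, and members without overlap that were admitted through one kind of library alone are pointed out.

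The leading higher genes included C3, Cftr and a mucin. Of genes with a mean of at least 5 CPM, the 12 with the largest difference inside both NER and LER+LIG were Lpo, C3, Cuzd1, Gabrp, Cftr, A2ml1, Slc16a14, Ckmt1, Dhrs9, Muc4, Fcgbp and Chst4. All 12 were chosen for no overlap and a large difference. Lpo, Gabrp, Cftr, Ckmt1 and Chst4 were below 5 CPM in every low library. They reached that mean through the high libraries alone and had to be higher. Lpo, which encodes the secreted lactoperoxidase, was at 0.0700, 0.521 and 299 CPM in NER replicates 1 to 3, 0.282, 0 and 0.148 CPM in LER, and 0.360, 1040.4 and 132 CPM in LER+LIG. It was nearly silent in every low library and reached its peak in LER+LIG replicate 2, with a difference of 7.95. C3, the central complement component and a known oestrogen-induced product of rat uterine epithelium, was at 14.3, 26.1 and 4185 CPM in NER replicates 1 to 3, 19.2, 9.10 and 13.3 CPM in LER, and 16.3, 13479 and 2124 CPM in LER+LIG. That is a difference of 8.01, and the authors' FPKM, which is per length, placed C3 at rank 33 of all genes in LER+LIG replicate 2, 157 in NER replicate 3 and 302 in LER+LIG replicate 3, against 10707 to 12621 in the low libraries. Cuzd1, first described as an oestrogen-regulated gene of rat uterus, was at 8.75, 7.42 and 745 CPM in NER replicates 1 to 3, 4.37, 6.63 and 4.36 CPM in LER, and 9.00, 2115 and 1033 CPM in LER+LIG, a difference of 7.01.

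The others included channel, mucus and enzyme genes. Cftr, the apical chloride channel, was at 1.19, 0.326 and 143 CPM in NER replicates 1 to 3, 0.493, 0.423 and 0 CPM in LER, and 0.792, 116 and 126 CPM in LER+LIG. Its high libraries lay close together, unlike those of Lpo. Gabrp, the pi subunit of the GABA-A receptor, was at 206, 61.8 and 188 CPM in the high libraries and at 0.0720 to 4.58 CPM in the low ones. Muc4, another transmembrane mucin, was at 3.50, 5.15 and 189 CPM in NER replicates 1 to 3, 6.55, 10.8 and 5.92 CPM in LER, and 0.576, 1102 and 184 CPM in LER+LIG, so LER+LIG replicate 1 was the lowest library and LER+LIG replicate 2 the highest. Fcgbp, a protein of mucus, was at 343, 1067 and 144 CPM in the high libraries and at 5.18 to 12.6 CPM in the low ones. Chst4, a sulfotransferase that modifies mucin-type glycans, was at 90.6, 363 and 50.1 CPM in the high libraries and at 0 to 1.83 CPM in the low ones. Dhrs9, a retinol dehydrogenase, was at 165, 733 and 118 CPM in the high libraries and at 0.216 to 6.13 CPM in the low ones. A2ml1, a protease inhibitor of the alpha-2-macroglobulin family, was at 509, 1469.7 and 573 CPM in the high libraries and at 2.37 to 15.2 CPM in the low ones. Slc16a14, of the monocarboxylate transporter family, was at 179, 73.1 and 173 CPM in the high libraries and at 0.360 to 12.0 CPM in the low ones, and the mitochondrial creatine kinase Ckmt1 at 87.9, 58.7 and 50.3 CPM in the high libraries and at 0.360 to 2.96 CPM in the low ones. The differences of the 12 genes ran from 4.59 for Ckmt1 to 8.01 for C3.

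The leading lower genes included Sostdc1 and the calcitonin gene. By the same ranking 11 of the 12 were LOC259244, Sostdc1, Scgb1c1, P2rx2, Calca, Penk, Slc5a8, Cyp26a1, Them5, Pbld1 and Cyp1b1. Sostdc1, a secreted antagonist of BMP and Wnt signals that was first found in rat endometrium prepared for decidualisation, was at 785, 706 and 6.97 CPM in NER replicates 1 to 3, 967, 514 and 448 CPM in LER, and 1072, 3.23 and 44.2 CPM in LER+LIG. It was abundant in every low library, and its difference was -6.55. Calca, which encodes calcitonin, a peptide that progesterone induces in rat uterine epithelium before implantation, was at 125, 121 and 1.39 CPM in NER replicates 1 to 3, 175, 186 and 109 CPM in LER, and 136, 0.773 and 3.85 CPM in LER+LIG. The low libraries of all 3 treatments were close together and the difference was -5.78.

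The other lower genes were of several kinds. P2rx2, an ATP-gated ion channel, was at 132, 148 and 0 CPM in NER replicates 1 to 3, 127, 113 and 111 CPM in LER, and 99.7, 1.69 and 0.604 CPM in LER+LIG. Penk, the proenkephalin gene, was at 1.81, 0.773 and 0.529 CPM in the high libraries and at 65.0 to 159 CPM in the low ones. Scgb1c1, a secretoglobin, was at 0.836, 2.81 and 1.66 CPM in the high libraries and at 99.8 to 225 CPM in the low ones. Cyp26a1, which breaks down retinoic acid and is known in rodent uterus around implantation, was at 0.279, 0.773 and 0 CPM in the high libraries and at 10.9 to 58.5 CPM in the low ones. Cyp1b1, a monooxygenase that hydroxylates oestradiol among other substrates, was at 2.79, 1.62 and 2.57 CPM in the high libraries and at 51.5 to 90.1 CPM in the low ones. Slc5a8, a monocarboxylate transporter, was at 0.0697, 2.04 and 0.982 CPM in the high libraries and at 28.8 to 91.1 CPM in the low ones, and the thioesterase gene Them5 at 0.0697, 0.141 and 0.378 CPM in the high libraries and at 24.0 to 132 CPM in the low ones. Pbld1 was at 0.209, 5.13 and 0.302 CPM in the high libraries and at 28.5 to 59.7 CPM in the low ones and LOC259244 at 0, 0.0703 and 0 CPM in the high libraries and at 15.1 to 116 CPM in the low ones. Differences of these 12 genes ran from -6.55 for Sostdc1 to -3.82 for Cyp26a1.

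**Figure D2:**
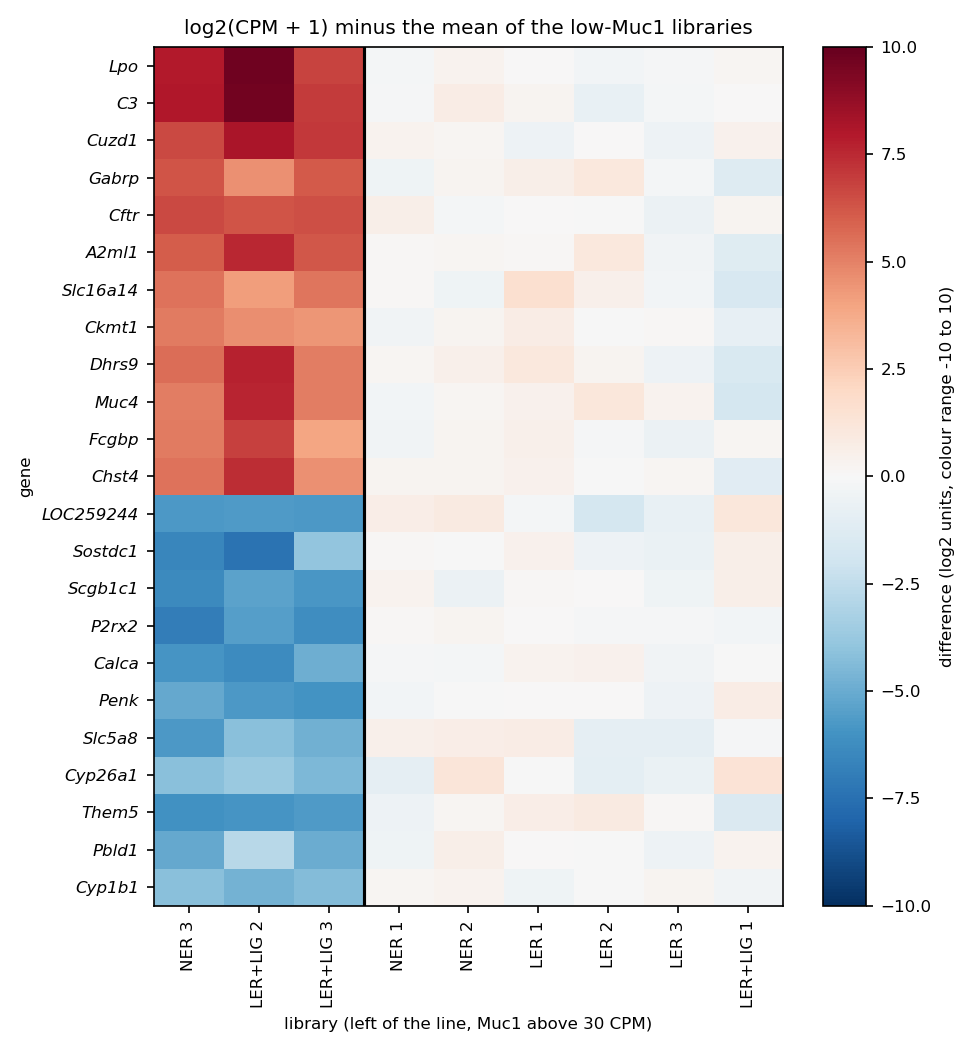
Difference of log2(CPM + 1) from the mean of the 6 low libraries for the 12 leading higher genes and 11 of the 12 leading lower genes in each library, with the 3 high libraries left of the line. Red is higher and blue lower. The 3 high libraries have the same sign in each of the 23 genes because the genes were chosen for no overlap. NER, LER and LER+LIG libraries right of the line lie nearer to 0.

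Inside a single treatment the high and low libraries had the same drugs, so NER and LER+LIG each give the difference apart from the treatment labels, without a library in common. NER replicate 3 was set against the mean of NER replicates 1 and 2, and the mean of LER+LIG replicates 2 and 3 against LER+LIG replicate 1. At least 2-fold differences on the log2(CPM + 1) scale in the same direction in both were found in 911 genes higher in the high libraries (6.69%) and 443 lower (3.25%). A 2-fold difference in opposite directions was found in 20 genes that were higher in NER and lower in LER+LIG and in 68 with the reverse. Within NER alone 1322 genes were 2-fold higher and 1168 lower, and within LER+LIG alone 3185 and 1173. Across the 13621 genes the differences inside NER and inside LER+LIG had a Pearson r of 0.564 and a Spearman rho of 0.460, a description across genes, which are not independent. The median difference inside LER+LIG was 0.23 over all genes with plain CPM and 0.03 with TMM factors. With TMM factors 834 genes were at least 2-fold higher and 506 at least 2-fold lower in both treatments.

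C3 differed by 7.68 inside NER and 8.27 inside LER+LIG, and Lpo by 7.88 inside NER and 8.10 inside LER+LIG. Sostdc1 differed by -6.55 inside NER and -6.28 inside LER+LIG, and Calca by -5.70 inside NER and -5.54 inside LER+LIG. C3, Lpo, Sostdc1 and Calca were named for a large difference in both treatments. That both of their values are large was therefore set by the choice. One comparison held rats without drugs and the other rats with hydroxyurea, adrenaline and LIG. The chemokine gene Ccl11 showed an unequal pair, with 5.01 inside NER and 2.21 inside LER+LIG. Over all 13621 genes the median SD of log2(CPM + 1) between the 3 libraries of a treatment was 0.32 in NER, 0.19 in LER, which has low libraries alone, and 0.52 in LER+LIG.

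**Figure D3:**
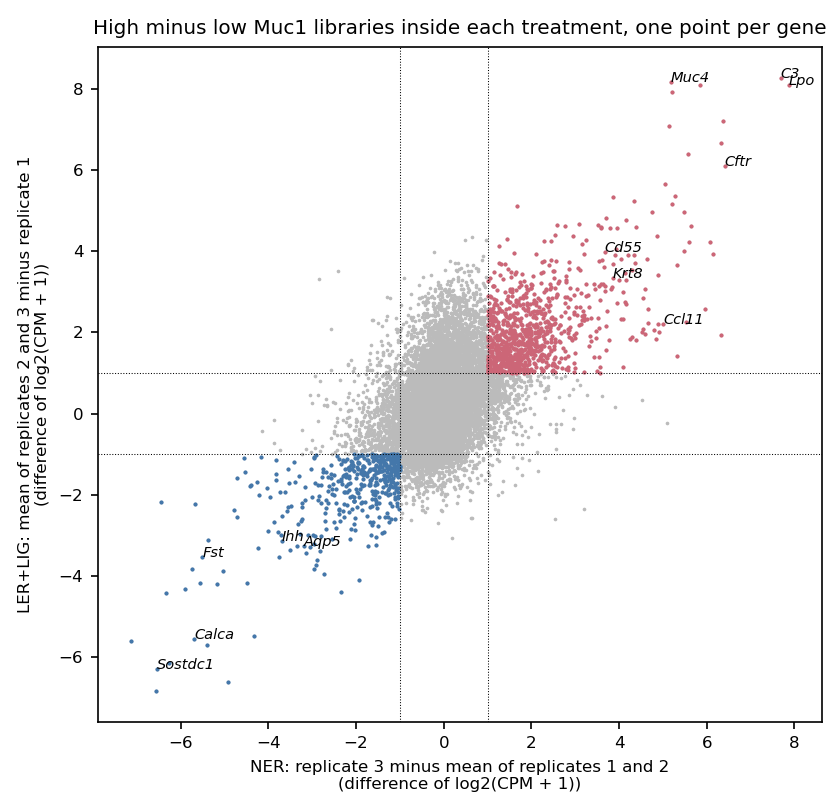
Each point is 1 of the 13621 genes plus Muc1, placed by the high minus low difference of log2(CPM + 1) inside NER (horizontal) and inside LER+LIG (vertical). Dotted lines mark a difference of 1 in each direction; the 911 red and 443 blue genes pass both, with C3 and Lpo at the upper right and Sostdc1 and Calca at the lower left.

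The genes whose levels followed Muc1 most closely over the 9 libraries, by Pearson r of log2(CPM + 1) among genes with a mean of at least 5 CPM, were Slc26a4 (r = 0.993), Olfm4 (0.990), Bace2 (0.988), Aldh1a7 (0.987) and Lpo (0.987). With 3 libraries far from 6, such a value mostly restates the separation and the order of the 3, and it has no p. Slc26a4, the anion exchanger pendrin, was at 4.27, 5.15 and 186 CPM in NER replicates 1 to 3, 2.82, 4.51 and 3.92 CPM in LER, and 3.67, 513 and 105 CPM in LER+LIG. Like Muc1 it was highest in LER+LIG replicate 2, then in NER replicate 3 and then in LER+LIG replicate 3. Olfm4, a secreted glycoprotein of mucosal epithelium, was at 54.9, 172 and 20.2 CPM in the high libraries and at 0.0705 to 1.94 CPM in the low ones. The protease gene Bace2 was at 119, 178 and 79.7 CPM in the high libraries and at 31.9 to 38.9 CPM in the low ones. The most opposite genes were Suox (r = -0.981), Il17rb (-0.980), Sostdc1 (-0.980), Thbs3 (-0.979) and Calca (-0.979). Il17rb, a receptor for interleukin 25, was at 4.11, 4.50 and 17.1 CPM in the high libraries and at 67.3 to 112 CPM in the low ones.

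Genes that oestrogen and progesterone are known to induce in the rodent uterus lay on opposite sides of the split, in lists drawn up with earlier results of these libraries known. Of 15 listed oestrogen-responsive genes 13 were described, 10 were higher at the median and 3 lower, with 6 (46.2%) and 1 (7.69%) without overlap, against 10.1% and 8.3% over all genes, and a median difference of 2.34. Padi1 and Cftr passed the minimum through the high libraries alone and had to be higher, and without them 4 of 11 were higher without overlap. Of 21 listed progesterone-responsive genes 20 were described, 3 were higher and 17 lower, with 0 and 9 (45%) without overlap and a median difference of -0.97. Areg and Cyp26a1 passed through the low libraries alone, and without them 7 of 18 were lower without overlap. Among the oestrogen-responsive genes Inhbb, the beta B subunit of inhibin and activin, was at 302, 152 and 343 CPM in the high libraries and at 17.8 to 32.9 CPM in the low ones. Lcn2, which encodes the iron-binding lipocalin 2, was at 131, 506 and 106 CPM in the high libraries and at 8.39 to 30.9 CPM in the low ones. Padi1, a peptidylarginine deiminase gene, had no count in the low libraries and was at 39.2, 11.6 and 11.8 CPM in the high ones. Padi2 and Greb1 were high in NER replicate 3 and LER+LIG replicate 3 but not in LER+LIG replicate 2: Padi2 was at 763, 47.8 and 585 CPM in the high libraries and at 47.7 to 104 CPM in the low ones, and Greb1 at 216, 60.0 and 256 CPM in the high libraries and at 30.4 to 61.0 CPM in the low ones. Ltf, the lactoferrin gene and an oestrogen target in the mouse uterus, was at or near 0 everywhere, with 0.492 CPM at most. Aqp5, a water channel of uterine glands, was the exception in the other direction at 34.1, 19.3 and 35.7 CPM in the high libraries and at 206 to 373 CPM in the low ones. Leaving out NER replicate 3 took the oestrogen list's median to 1.22, and leaving out LER+LIG replicate 3 to 1.38.

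Among the progesterone-responsive genes the epithelial ligands were the clearest. Ihh, the ligand through which uterine epithelium signals to stroma, was at 31.0, 76.8 and 2.86 CPM in NER replicates 1 to 3, 68.7, 57.5 and 20.6 CPM in LER, and 32.5, 5.55 and 1.21 CPM in LER+LIG, a difference of -3.52. Areg, an epidermal growth factor family ligand, was at 9.66, 5.08 and 0.139 CPM in NER replicates 1 to 3, 25.4, 16.6 and 3.92 CPM in LER, and 11.4, 0.422 and 0 CPM in LER+LIG. Fst, the activin-binding follistatin, was at 3.83, 9.34 and 11.3 CPM in the high libraries and at 129 to 245 CPM in the low ones, and the endocytic receptor gene Lrp2 at 0.975, 8.64 and 7.55 CPM in the high libraries and at 41.4 to 155 CPM in the low ones. Stromal members differed less. Hand2, a stromal factor that restrains oestrogen signalling in the mouse, was at 4.46, 5.13 and 6.04 CPM in the high libraries and at 3.53 to 20.2 CPM in the low ones and overlapped, as did Bmp2 and Gata2. Fkbp5, a co-chaperone of steroid receptors, was at 31.6, 40.3 and 40.0 CPM in the high libraries and at 60.0 to 91.5 CPM in the low ones and did not overlap. Wnt4 was at 138, 121 and 62.7 CPM in the high libraries and at 27.2 to 78.5 CPM in the low ones, higher at the median but with overlap.

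The Hedgehog pathway downstream of Ihh went the same way. All 8 described genes of the 9 listed were lower at the median and 4 (50%, against 8.3% over all genes) did not overlap, with a median difference of -1.26. One of the 4 passed the minimum through the low libraries alone, which leaves 3 of 7. Gli1, a transcription factor induced by Hedgehog signals, was at 11.8, 4.29 and 10.4 CPM in the high libraries and at 34.8 to 136 CPM in the low ones. Ptch1, the main receptor, was at 33.4, 60.6 and 41.1 CPM in the high libraries and at 65.6 to 196 CPM in the low ones. In LER+LIG replicate 1 Ptch1 and Gli1 stood at 65.6 and 34.8 CPM, below the other low libraries, and the list's median inside LER+LIG was -0.06 against -1.40 inside NER.

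The receptors for these hormones did not separate the libraries. Esr1, the oestrogen receptor alpha gene, was at 326, 242 and 323 CPM in NER replicates 1 to 3, 240.3, 306 and 299 CPM in LER, and 161, 265 and 390.4 CPM in LER+LIG, with overlap and a difference of 0.26. Pgr, the progesterone receptor gene and itself oestrogen-induced in the uterus, was at 157, 127 and 416 CPM in NER replicates 1 to 3, 137, 224 and 179 CPM in LER, and 35.0, 61.2 and 305 CPM in LER+LIG. It was high in NER replicate 3 and LER+LIG replicate 3 and low in LER+LIG replicate 2, so its difference of 1.05 became -0.10 without NER replicate 3 and 0.13 without LER+LIG replicate 3. Of the 11 described steroid receptor and coactivator genes 2 did not overlap, both higher, which is 18.2% against 10.1% over all genes. One was the mineralocorticoid receptor gene Nr3c2 at 2.51, 5.55 and 2.04 CPM in the high libraries and at 0 to 1.97 CPM in the low ones, and the other the coactivator gene Ncoa3 at 71.7, 63.4 and 52.5 CPM in the high libraries and at 9.21 to 45.3 CPM in the low ones.

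**Figure D4:**
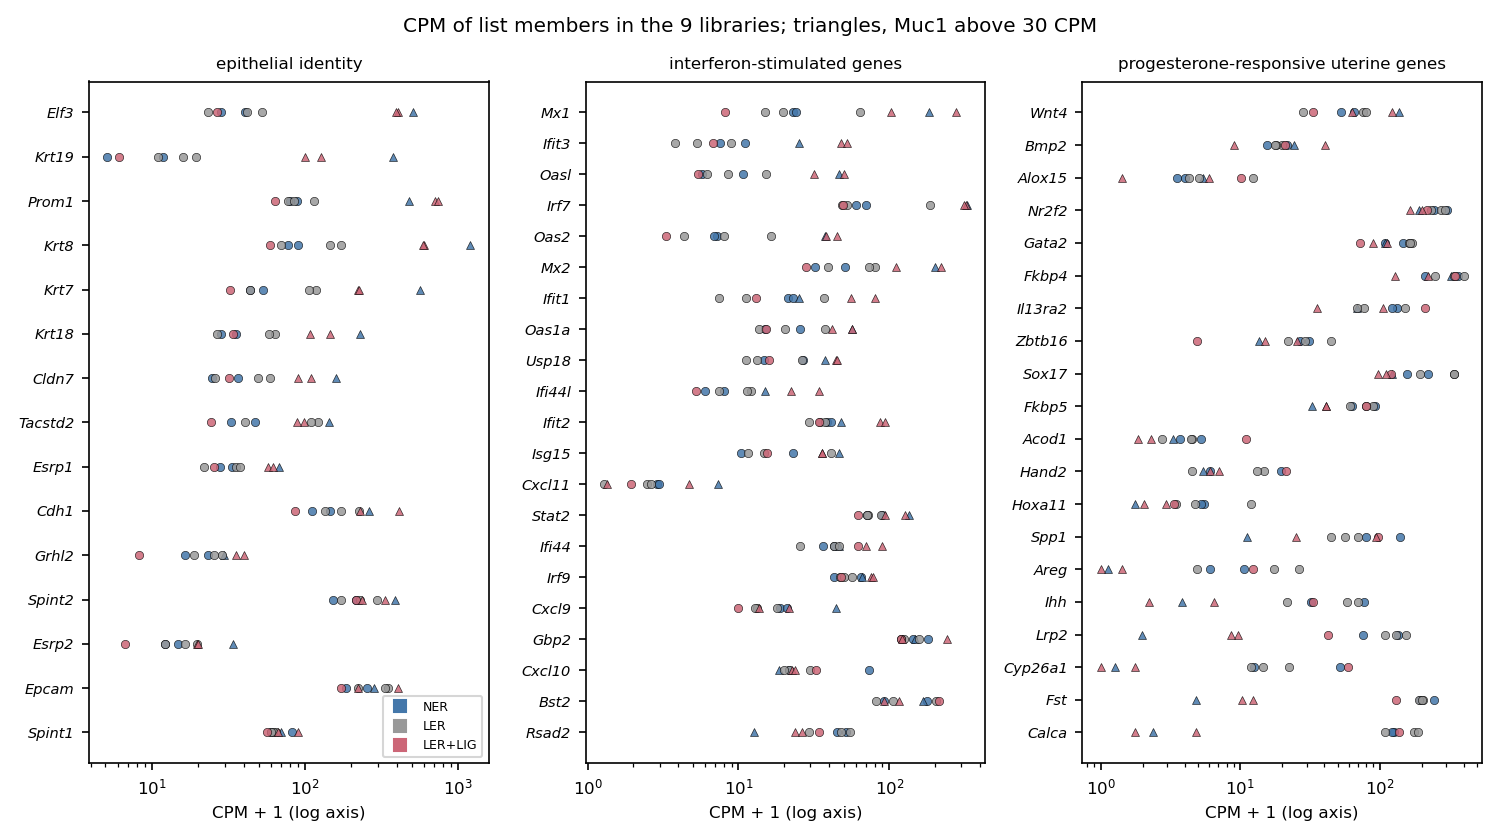
CPM + 1 on a log axis for described members of 3 gene lists, 1 row per gene ordered by the high minus low difference, with triangles for the 3 high and circles for the 6 low libraries, coloured by treatment. Triangles lie to the right for most epithelial and interferon-stimulated genes, and to the left for Calca, Fst, Cyp26a1, Lrp2 and Ihh among the progesterone-responsive genes.

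Implantation genes were divided. Of 16 described, 8 were higher and 8 lower at the median, and 2 did not overlap, both higher. That is 12.5%, near the 10.1% over all genes, so it is no result about the list. Msx2, a homeobox factor of uterine epithelium, was at 25.3, 39.1 and 27.8 CPM in the high libraries and at 2.41 to 4.62 CPM in the low ones. Hbegf, a growth factor that mouse epithelium expresses at the site of the blastocyst, was at 16.4, 14.3 and 16.7 CPM in the high libraries and at 2.66 to 9.24 CPM in the low ones. Lif, the cytokine required for implantation in the mouse, was at 18.3, 11.9 and 15.5 CPM in NER replicates 1 to 3, 20.9, 13.1 and 14.1 CPM in LER, and 7.41, 4.15 and 10.6 CPM in LER+LIG, with overlap and a difference of -0.34. Ptgs2, the inducible cyclooxygenase, was at 39.1, 5.34 and 22.6 CPM in the high libraries and at 3.26 to 6.63 CPM in the low ones, high in 2 of the 3 high libraries.

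The apical surface and its junctions differed gene by gene. Of 11 listed mucins and glycocalyx proteins other than Muc1, 6 were described and 5 were higher at the median, 2 of them (33.3%) without overlap, Muc4 (above) and Muc20 at 9.89, 37.7 and 12.8 CPM in the high libraries and at 1.08 to 2.87 CPM in the low ones. Muc2, Muc5ac and Muc13 were below the minimum. Of 17 tight junction genes 9 were higher and 8 lower, 3 each (17.6%) without overlap, against 10.1% and 8.3% over all genes. Claudin genes went both ways: Cldn7 was at 158, 89.6 and 109 CPM in the high libraries and at 23.7 to 58.7 CPM in the low ones, and Cldn10 at 8.57, 10.3 and 17.7 CPM in the high libraries and at 1.12 to 1.92 CPM in the low ones. Cldn3 was at 67.4, 167 and 52.3 CPM in the high libraries and at 178 to 399 CPM in the low ones, Cldn1 at 7.17, 12.6 and 5.74 CPM in the high libraries and at 32.1 to 54.9 CPM in the low ones and Cldn23 at 3.34, 10.5 and 1.13 CPM in the high libraries and at 19.2 to 37.1 CPM in the low ones. Tjp3, which links junction proteins to actin, was at 47.4, 76.0 and 21.8 CPM in the high libraries and at 2.52 to 8.81 CPM in the low ones.

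Fluid transport genes also went both ways. Of 17 described, 3 were higher (17.6%) and 4 lower (23.5%) without overlap, against 10.1% and 8.3% over all genes. Cftr and Aqp3 passed the minimum through the high libraries alone and Scnn1g through the low ones alone, and among the 13 admitted through both kinds 1 was higher and 3 lower without overlap. The anion genes Cftr and Slc26a4 (above) and the water and glycerol channel Aqp3, at 16.5, 2.39 and 6.42 CPM in the high libraries and at 0 to 0.493 CPM in the low ones, were higher. The sodium channel subunits Scnn1a, at 8.71, 8.36 and 3.62 CPM in the high libraries and at 15.0 to 70.8 CPM in the low ones, and Scnn1g, at 0.348, 0.843 and 0.982 CPM in the high libraries and at 1.73 to 7.70 CPM in the low ones, were lower, as were Aqp5 (above) and the carbonic anhydrase gene Car2, at 6.69, 7.73 and 15.0 CPM in the high libraries and at 19.7 to 25.2 CPM in the low ones. The medians of the tight junction and transport lists were 0.08 and 0.18, and both turned negative without LER+LIG replicate 2, to -0.10 and -0.008.

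Secreted defence and complement genes were led by C3. Of 9 described secretory and antimicrobial genes 4 were higher and 5 lower at the median, with 4 (44.4%) and 1 (11.1%) without overlap, against 10.1% and 8.3% over all genes. The list's median difference was -0.15, and -1.04 inside NER. Pigr, which carries immunoglobulin A across epithelium, was at 342, 1513 and 323 CPM in the high libraries and at 93.9 to 152 CPM in the low ones. Lyz2, a lysozyme gene also made by macrophages, was at 2663, 1166 and 1764 CPM in the high libraries and at 371 to 554 CPM in the low ones. Lcn2 (above) and Wfdc2, at 133, 105 and 103 CPM in the high libraries and at 30.1 to 56.4 CPM in the low ones, were the other higher genes without overlap, and the trefoil peptide gene Tff3 was lower at 1.04, 0.632 and 1.81 CPM in the high libraries and at 3.19 to 9.43 CPM in the low ones. The 4 lower genes that overlapped included Slpi, a protease inhibitor of secretions, at 62.4, 432 and 82.5 CPM in the high libraries and at 184 to 310.4 CPM in the low ones. Of 14 described complement genes 5 (35.7%) were higher without overlap and 0 lower. Besides C3 these included the regulators Cd55, at 652, 286 and 708 CPM in the high libraries and at 26.9 to 52.2 CPM in the low ones, and Cfi, at 96.8, 145 and 83.3 CPM in the high libraries and at 10.8 to 19.4 CPM in the low ones, and the component gene C2, at 26.6, 20.6 and 15.9 CPM in the high libraries and at 5.01 to 12.5 CPM in the low ones. C1r overlapped, at 611, 349 and 458 CPM in the high libraries and at 496 to 689 CPM in the low ones.

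Wnt and BMP genes were more often lower. Of 22 described, 15 were lower and 7 higher at the median, 6 (27.3%) and 1 (4.55%) without overlap, with a median difference of -0.38. Over all genes 53.5% were lower at the median and 8.3% lower without overlap. The secreted Wnt antagonist Sfrp1 was at 17.7, 51.6 and 44.0 CPM in the high libraries and at 162 to 256 CPM in the low ones, and Sfrp2 at 17.9, 37.2 and 51.7 CPM in the high libraries and at 72.9 to 115 CPM in the low ones. Lef1, a nuclear effector of Wnt signalling, was at 3.48, 18.1 and 2.49 CPM in the high libraries and at 21.1 to 36.0 CPM in the low ones. Wnt16, Bmp4 and Nog were the remaining lower genes without overlap, and the receptor gene Fzd6 the higher one. Wnt5a was at 448, 85.9 and 516 CPM in the high libraries and at 81.8 to 194 CPM in the low ones, high in NER replicate 3 and LER+LIG replicate 3 and not in LER+LIG replicate 2.

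Prostaglandin genes went both ways. Of 16 described genes of the pathway, 7 were higher and 9 lower at the median, 1 (6.25%) and 4 (25%) without overlap, against 10.1% and 8.3% over all genes. The list's median difference was -0.16, but 0.32 inside NER and 0.59 inside LER+LIG. Ptger2, a receptor for prostaglandin E2, was at 5.02, 6.39 and 4.76 CPM in the high libraries and at 25.7 to 59.3 CPM in the low ones, Ptger4 at 13.3, 18.0 and 13.3 CPM in the high libraries and at 29.3 to 45.7 CPM in the low ones and Ptges at 0.627, 0.913 and 0.604 CPM in the high libraries and at 3.24 to 10.6 CPM in the low ones. Ptger3 was at 145, 125 and 7.24 CPM in NER replicates 1 to 3, 136, 120.1 and 133 CPM in LER, and 109, 102 and 8.23 CPM in LER+LIG, so LER+LIG replicate 2 stood just under the low libraries and the other 2 far under them. The thromboxane synthase gene Tbxas1 was higher at 42.9, 25.7 and 35.4 CPM in the high libraries and at 6.19 to 14.7 CPM in the low ones. Ptges passed the minimum through the low libraries alone. Slco2a1, a prostaglandin transporter gene, was higher at the median with overlap, at 216, 26.8 and 177 CPM in the high libraries and at 31.9 to 69.8 CPM in the low ones.

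Interferon-stimulated genes were mostly higher. Of 22 described interferon-stimulated genes of 23 listed, 19 were higher and 3 lower at the median, with 13 (59.1%) and 1 (4.55%) without overlap, against 10.1% and 8.3% over all genes, and a median difference of 1.27. Irf7, a transcription factor of the interferon response, was at 59.5, 69.2 and 327 CPM in NER replicates 1 to 3, 184, 51.3 and 47.5 CPM in LER, and 48.4, 319.6 and 309.9 CPM in LER+LIG. LER replicate 1 was above the other low libraries and still below the 3 high ones. Mx1, a GTPase that restricts viruses, was at 181, 102 and 278 CPM in the high libraries and at 7.20 to 62.7 CPM in the low ones, Oas2, a sensor of double-stranded RNA, at 36.4, 37.2 and 44.0 CPM in the high libraries and at 2.30 to 15.4 CPM in the low ones and Ifit3 at 24.1, 46.7 and 51.7 CPM in the high libraries and at 2.82 to 10.0 CPM in the low ones. Rsad2 was the gene that went against the list, at 11.6, 22.8 and 25.2 CPM in the high libraries and at 28.6 to 53.6 CPM in the low ones.

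Of the 13 interferon-stimulated genes that were higher without overlap, 8 had a promoter in the RefSeq table, and 4 of these held the core of an interferon-stimulated response element, GAAANNGAAA on either strand, which 3.29% of all 27457 promoters held. The windows around 3 of them are shown since they carry the same element in genes that were high together; capitals mark the match, on GRCr8 and the gene's strand.
Ifit3, chr1:241527267-241527306, plus strand: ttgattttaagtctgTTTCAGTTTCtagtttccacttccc
Irf7, chr1:205800068-205800107, minus strand: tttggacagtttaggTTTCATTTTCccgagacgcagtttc
Oas1a, chr12:41330416-41330455, plus strand: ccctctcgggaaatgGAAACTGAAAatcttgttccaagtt
The element ended 34 bases before the start site in Ifit3, 59 in Irf7 and 25 in Oas1a. A match says nothing on whether a factor was bound there, and the list was chosen as interferon-stimulated.

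MHC class II and macrophage genes were higher in the same libraries. Of 8 described MHC class II genes 5 (62.5%) were higher without overlap, against 10.1% over all genes, and the median difference was 1.75. Cd74, the invariant chain, was at 1689, 1544 and 737 CPM in the high libraries and at 388 to 567 CPM in the low ones, and Ciita, the master regulator of the class, at 43.2, 31.1 and 21.7 CPM in the high libraries and at 4.25 to 9.31 CPM in the low ones. RT1 genes have near-identical copies that can share reads, and RT1-Da was at 546, 521 and 238 CPM in the high libraries and at 133 to 186 CPM in the low ones. Of 16 macrophage and dendritic cell markers, all described, 13 were higher at the median and 8 (50%) without overlap, with a median difference of 1.04 that was 0.68 without NER replicate 3. Cd68 was at 97.0, 97.7 and 56.0 CPM in the high libraries and at 16.6 to 28.0 CPM in the low ones, Csf1r, the receptor for macrophage growth factors, at 328, 235 and 282 CPM in the high libraries and at 77.0 to 159.6 CPM in the low ones and the Fc receptor chain gene Fcer1g at 134, 135 and 143 CPM in the high libraries and at 27.9 to 67.4 CPM in the low ones. C1qc overlapped at 179.8, 148 and 63.2 CPM in the high libraries and at 56.1 to 125 CPM in the low ones. In bulk tissue more cells of a type and more RNA per cell cannot be told apart.

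Other immune markers were less even. Of 15 described NF-kB genes, 6 (40%) were higher and 1 (6.67%) lower without overlap, against 10.1% and 8.3% over all genes. Nfkbia, the inhibitor induced by NF-kB, was at 97.9, 132 and 130.0 CPM in the high libraries and at 68.6 to 82.1 CPM in the low ones, and Vcam1, an adhesion molecule, was lower at 11.1, 5.90 and 3.78 CPM in the high libraries and at 13.1 to 32.7 CPM in the low ones. All 11 described T cell markers were higher at the median, 4 (36.4%) of them without overlap, Icos among these through the high libraries alone, and the median difference of 0.55 was 0.32 without NER replicate 1, 0.33 without NER replicate 3 and 0.84 without LER+LIG replicate 3. Lck, the T cell kinase, was at 27.8, 11.8 and 13.8 CPM in the high libraries and at 8.04 to 11.3 CPM in the low ones. For natural killer cells 2 of 10 (20%) did not overlap, Klrk1 at 30.2, 18.4 and 51.1 CPM in the high libraries and at 4.34 to 6.76 CPM in the low ones and Gzmm at 11.4, 13.4 and 9.67 CPM in the high libraries and at 5.85 to 9.28 CPM in the low ones, while the perforin gene Prf1 overlapped at 35.3, 14.8 and 10.3 CPM in the high libraries and at 8.28 to 15.8 CPM in the low ones. Csf3r, the granulocyte growth factor receptor, was at 28.6, 41.0 and 28.4 CPM in the high libraries and at 5.00 to 9.79 CPM in the low ones and was the single neutrophil marker of 7 (14.3%) without overlap; S100a9 was at 6.41, 48.1 and 7.17 CPM in the high libraries and at 2.75 to 32.1 CPM in the low ones. Of 4 described B and plasma cell genes 3 were higher and 1 lower at the median. Cd22, at 10.1, 5.41 and 20.2 CPM in the high libraries and at most 4.69 CPM in the low ones, and Cd79a, at 6.69, 1.19 and 0.755 CPM in the high libraries and at 0 to 0.493 CPM in the low ones, were higher without overlap, Cd79a having passed the minimum through the high libraries alone, while Ms4a1 and Pax5 were under the minimum.

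Cell cycle genes were lower in 2 of the 3 high libraries. All 21 described members of the list were lower at the median, 5 (23.8%, against 8.3% over all genes) without overlap, with a median difference of -1.07 that was -0.59 without LER+LIG replicate 2. The list's score, its median log2(CPM + 1) relative to the mean of the low libraries, was -1.08 in NER replicate 3, -1.66 in LER+LIG replicate 2 and -0.02 in LER+LIG replicate 3. The genes without overlap were those of DNA replication: Mcm2 was at 45.8, 41.5 and 56.2 CPM in the high libraries and at 91.5 to 122 CPM in the low ones, and Pcna, the sliding clamp, at 65.7, 85.6 and 120.3 CPM in the high libraries and at 127 to 266 CPM in the low ones, with Mcm3, Mcm4 and Mcm6 beside them. Mki67, a marker of cycling cells, was at 63.7, 67.3 and 25.7 CPM in NER replicates 1 to 3, 29.4, 35.6 and 81.2 CPM in LER, and 37.0, 16.0 and 69.7 CPM in LER+LIG and overlapped.

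Markers of epithelial identity moved with the split as a group, and their part in the results above was not tested. All 15 listed genes were described, all 15 were higher at the median and 11 (73.3%, against 10.1% over all genes) did not overlap, with a median difference of 1.17 and 1.85 and 1.88 inside NER and LER+LIG. Their summed level was 3266 to 4817 CPM in the high libraries and 837 to 1637 CPM in the low ones. Krt8, a keratin of simple epithelium, was at 76.5, 89.9 and 1212 CPM in NER replicates 1 to 3, 171, 146 and 68.9 CPM in LER, and 58.8, 603 and 597 CPM in LER+LIG. Krt19, another, was at 378, 99.5 and 128 CPM in the high libraries and at 4.13 to 18.5 CPM in the low ones. Elf3, an epithelial transcription factor, was at 514, 404 and 392 CPM in the high libraries and at 22.4 to 51.7 CPM in the low ones, and Prom1 at 482, 712 and 748 CPM in the high libraries and at 63.5 to 115 CPM in the low ones. Epcam, an adhesion molecule of all epithelium, overlapped at 186, 255 and 284 CPM in NER replicates 1 to 3, 349, 336 and 223 CPM in LER, and 171, 406 and 222 CPM in LER+LIG, and Spint1 at 68.8, 89.2 and 65.9 CPM in the high libraries and at 55.6 to 81.5 CPM in the low ones and Spint2 overlapped too. Genes named above that uterine epithelium is known to make went both ways. Ihh, Calca, Areg and Cldn3 were lower in the high libraries, and C3, Msx2 and Mmp7 were higher. These examples were picked after their values were seen.

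Markers of stroma and vessels were lower or overlapped, but not all kept 1 direction inside both treatments. The stromal fibroblast median was -0.74 inside NER and -1.17 inside LER+LIG. The endothelium median was -0.64 inside NER and 0.30 inside LER+LIG. The smooth muscle median was 0.23 inside NER and -0.60 inside LER+LIG. For stromal fibroblasts, 9 of 13 described genes were lower and 3 (23.1%, against 8.3% over all genes) without overlap, with a summed level of 9716 to 33404 CPM in the high and 30235 to 45160 CPM in the low libraries. Dcn, a matrix proteoglycan of fibroblasts, was at 2459, 2446 and 2244 CPM in the high libraries and at 1604 to 3671 CPM in the low ones. Thy1 was at 37.7, 33.8 and 20.7 CPM in the high libraries and at 61.0 to 128 CPM in the low ones and Col3a1 at 6931, 1899.8 and 7038 CPM in the high libraries and at 9135 to 15417 CPM in the low ones. Col1a1 was at 20449, 22882 and 20950.0 CPM in NER replicates 1 to 3, 19908, 15436 and 22521 CPM in LER, and 17026, 2139.7 and 21134 CPM in LER+LIG, with LER+LIG replicate 2 alone far from the rest. For endothelium 9 of 10 were lower, 3 (30%) without overlap, with 785 to 917 CPM against 799 to 1183 CPM in sum. Smooth muscle markers summed to 11655 to 22813 CPM against 17775 to 24474 CPM, with Acta2, at 3287, 1206 and 2337 CPM in the high libraries and at 3473 to 4503 CPM in the low ones, the 1 gene of 12 without overlap (8.33%, against 8.3% over all genes). Of 8 described decidual cell genes Gja1 was higher and Ptx3 lower without overlap, 12.5% each way, near the shares over all genes, and Ptx3 passed the minimum through the low libraries alone.

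Stratified squamous genes were high in 2 of the 3 high libraries. Of 20 listed, 7 were described, 4 higher and 3 lower at the median, with a list score of 2.69 in NER replicate 3, 2.27 in LER+LIG replicate 3 and -0.15 in LER+LIG replicate 2. Sprr1a, a precursor of the cornified envelope, was at 39.8, 18.4 and 58.4 CPM in the high libraries and at 3.85 to 9.45 CPM in the low ones, Sfn at 118, 9.06 and 55.4 CPM in the high libraries and at 2.44 to 6.20 CPM in the low ones and Tp63, the factor of basal squamous cells, at 6.34, 0.281 and 4.38 CPM in the high libraries and at 0.0651 to 0.216 CPM in the low ones. These 3 were higher without overlap, Tp63 having passed the minimum through the high libraries alone. Krt17, a keratin gene of the list, was lower by at least 2-fold inside both treatments but overlapped, at 0.0697, 2.32 and 1.81 CPM in the high libraries and at 0.888 to 11.1 CPM in the low ones, and Krt10 and Krt13 were the other genes lower at the median. The basal keratin genes Krt5 and Krt14 were under the minimum, as were Ivl, Dsc3 and Cnfn. Of 16 listed genes of ciliated epithelium 5 were described and 2 were lower without overlap, Tppp3 at 13.9, 6.18 and 8.84 CPM in the high libraries and at 28.5 to 76.9 CPM in the low ones and Cfap126, which passed the minimum through the low libraries alone.

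**Figure D5:**
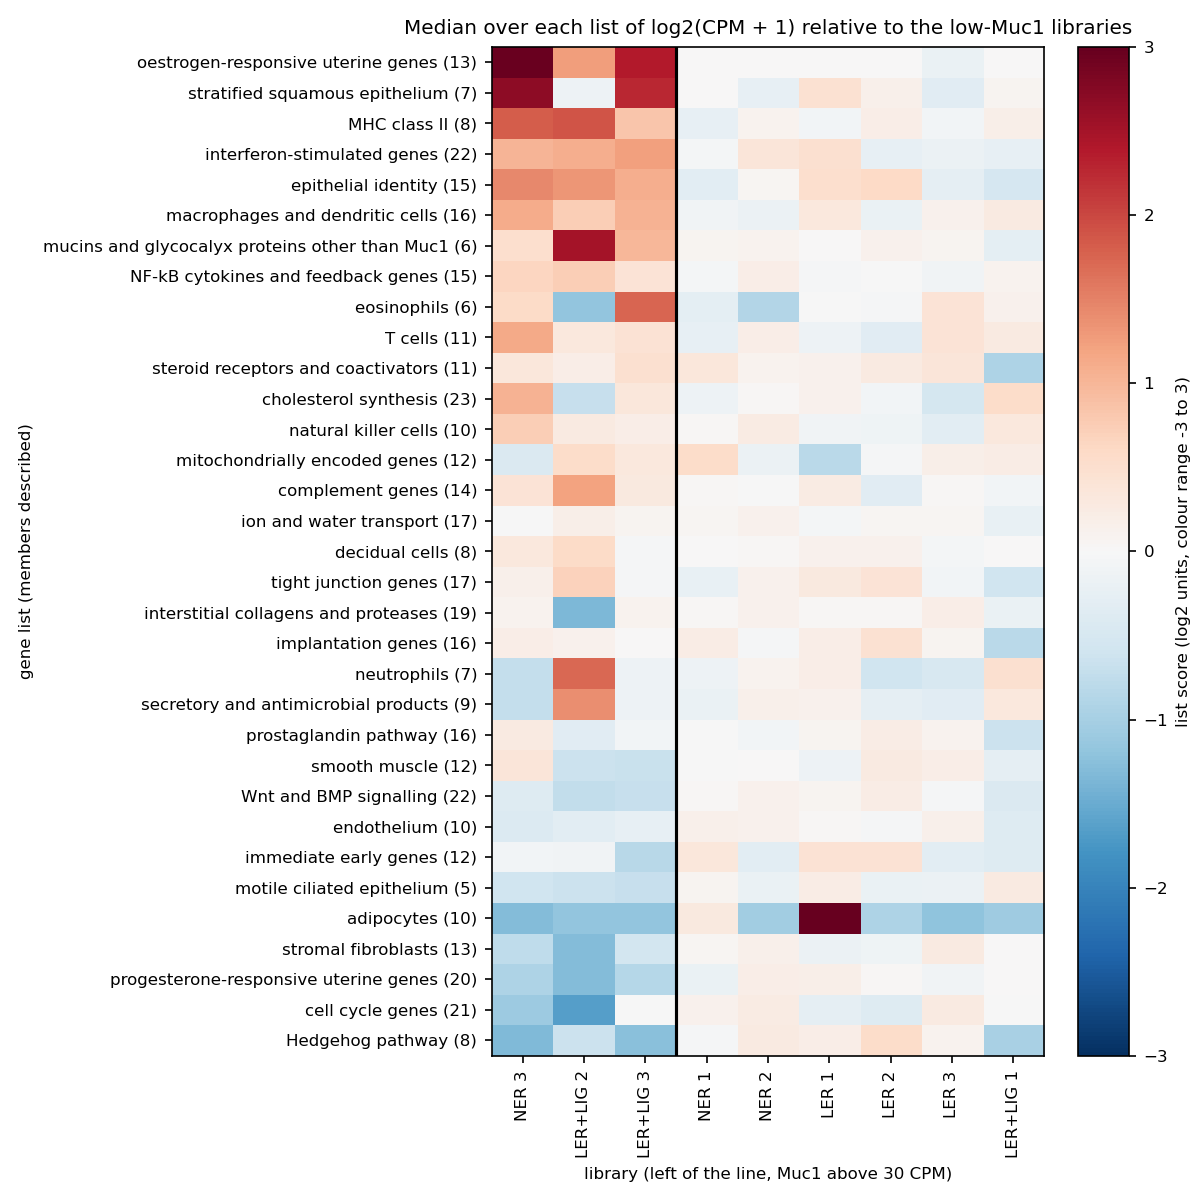
Score of each gene list with at least 5 described genes (rows, with that number in brackets) in each library (columns, the 3 high libraries left of the line), as the median over genes of log2(CPM + 1) relative to the mean of the 6 low libraries, in log2 units. Oestrogen-responsive, MHC class II, interferon-stimulated and epithelial genes are red in all 3 high libraries. Hedgehog, progesterone-responsive and stromal genes are blue in all 3. The Hedgehog row is also blue in the low library LER+LIG replicate 1, at -0.977 against -0.655 in LER+LIG replicate 2. Squamous, cholesterol, neutrophil, eosinophil and collagen rows differ among the 3 high libraries, and adipocyte genes are high in LER replicate 1.

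The 3 high libraries were not alike in every respect. LER+LIG replicate 2 had the most Muc1, C3, Lpo and Muc4 and the least Col1a1. Its cholesterol synthesis score was -0.70, against 1.04 in NER replicate 3 and 0.35 in LER+LIG replicate 3. Ccl11, a chemokine for eosinophils, was at 484, 7.45 and 1108 CPM in the high libraries and at 6.64 to 38.9 CPM in the low ones, and its receptor gene Ccr3 at 17.1, 1.12 and 76.4 CPM in the high libraries and at 1.69 to 23.0 CPM in the low ones. Ccl7 was at 183, 0.281 and 151 CPM in the high libraries and at 3.97 to 11.8 CPM in the low ones. NER replicate 3 and LER+LIG replicate 3 thus shared high Ccl11, Ccl7, Pgr, Wnt5a, Greb1 and Padi2, none of which was high in LER+LIG replicate 2. The neutrophil score was 1.73 in LER+LIG replicate 2 and -0.72 and -0.16 in the others. Adipoq, an adipocyte hormone, was at 83.6 and 75.2 CPM in LER+LIG replicates 2 and 3 with the lipid droplet gene Cidec at 0 in both. For LER+LIG as a group, low replicate 1 included, edgeR's log2 fold change of Cidec was -11.3 ± 2.91 (SE) over LER and -8.06 ± 3.02 (SE) over NER. The adjusted p by edgeR was 0.34 and 0.87, so neither passed. LER replicate 1, which enters the LER mean, had an adipocyte score of 3.96, the highest of the low libraries. The absence of Cidec was not shown to go with the split or with LIG.

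The remaining lists went both ways or mostly overlapped. Of 23 cholesterol synthesis genes 19 were higher at the median and 1, Sc5d, without overlap (4.35%, against 10.1% over all genes), with a median difference of 1.06 inside NER and -0.62 inside LER+LIG. Of 19 described collagen and matrix protease genes 11 were higher and 8 lower, 2 (10.5%) and 5 (26.3%) without overlap, with Mmp7, a protease of uterine epithelium, at 1072, 2272 and 668 CPM in the high libraries and at 49.7 to 160.3 CPM in the low ones and Mmp3, admitted through the low libraries alone, at 0.139, 0.632 and 0 CPM in the high libraries and at 4.30 to 9.36 CPM in the low ones. Of 12 described immediate early genes 9 were lower, 2 (16.7%) without overlap, against 8.3% over all genes. Of 10 described adipocyte genes 7 were lower, 2 (20%) without overlap, and 6 of the 10, Pck1 without overlap among them, passed the minimum through the low libraries alone. Of 6 described eosinophil genes 5 were higher, 0 of these without overlap, and 1, Prg2, admitted through the low libraries alone, was lower without overlap. Of the 2 described mast cell genes Kit was higher without overlap, at 73.2, 95.2 and 82.5 CPM in the high libraries and at 15.9 to 28.9 CPM in the low ones, and Cpa3 was lower at the median with overlap, at 0.209, 0.492 and 1.36 CPM in the high libraries and at 0.423 to 2.61 CPM in the low ones. Erythroid genes, 4 in number, and 12 mitochondrially encoded genes all overlapped.

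Among the 1376 genes higher without overlap, NER replicate 3 was the highest library in 520, LER+LIG replicate 2 in 495 and LER+LIG replicate 3 in 361. Among the 1131 lower genes they were the lowest in 395, 427 and 309. No single high library held most of the extremes in either direction.

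Between the 3 treatments as labelled no gene passed the test by edgeR. The quasi-likelihood test of edgeR, adjusted by Benjamini-Hochberg over 14232 genes, called 0 genes (0%) for LER against NER, 0 (0%) for LER+LIG against LER and 0 (0%) for LER+LIG against NER. At an unadjusted p under 0.05 by edgeR there were 124, 1777 and 775 genes. Chance alone would pass a share of about 0.05 of the 14232 genes, which is above 124, below 1777 and near 775. With adjustment DESeq2 called 2 of 17719, 303 of 14605 and 14 of 15643 genes. For C3 the log2 fold change of LER+LIG over LER was 8.57 ± 2.80 (SE), with an adjusted p of 0.36 by edgeR, and the authors' deposited table gives 8.55. DESeq2 gave C3 an adjusted p of 0.0045. For Calca edgeR gave -1.48 ± 1.66 (SE) with an adjusted p of 0.73, and -6.05 without LER+LIG replicate 1. That replicate is the one low library of its group. Without it the contrast sets high against low libraries, so -6.05 restates the split on which Calca was chosen. LER+LIG holds 2 high libraries and LER none, so this labelled contrast contains the high libraries on one side, and LIG and the share of high libraries cannot be told apart in it. With 1 of 3 NER libraries high, 0 of 3 LER and 2 of 3 LER+LIG, no order of the treatments by that share can be drawn from 3 libraries each.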

How the data were processed

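Poly-A selected messenger RNA was sequenced from 9 libraries, 3 each of NER, LER and LER+LIG, grouped by their titles. Per the file headers, the deposited table holds read counts per gene as whole numbers with Ensembl rat identifiers, and the authors' FPKM, used here only for ranks. The authors' deposited table of comparisons gives log2 fold changes and unadjusted p-values. The sources used here name no aligner, counter, build, strand setting or test. Reads of overlapping and antisense genes therefore cannot be told apart. Rows without a symbol took at most 0.0031% of the counts. The chi-square per degree of freedom between libraries was at least 18.7, so no 2 are the same library. No batch is given in the labels.

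Levels are counts divided by the library total, as CPM. Libraries were split by Muc1 at 30 and 20 CPM. Genes with a mean of at least 1 CPM were described on log2(CPM + 1), with no test of the split. Labelled contrasts were fitted with edgeR 4.0.16 (TMM, filterByExpr, robust glmQLFit, glmQLFTest) in R 4.3.3 over all 9 libraries and called at an adjusted p under 0.05, with DESeq2 1.42.0 as an alternative. The common biological coefficient of variation was 0.441. The scripts were tested on simulated data. The members and the 36 gene lists were chosen with earlier results of these data known. Of 555 list entries 537 matched by symbol and 3 by an older symbol, 15 had no match, and 441 passed the mean minimum, 14 of them with a low-library mean under it and 20 with a high-library mean under it.

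Named genes were the 12 in each direction without overlap, with a mean of at least 5 CPM and the largest smaller difference inside NER and LER+LIG; up to 4 per list, by level or difference; 10 hormone, implantation and proliferation genes always; and the 5 most and 5 least like Muc1. Some named genes and list members are not reported here. Other genes without overlap are named as list members, and some genes that differ among the high libraries were chosen after their values were seen. Alternatives were other scalings, filters and pseudocounts, the replicate block and leaving out each library. Pairing of libraries by replicate number was not shown. Same-numbered libraries correlated between -0.19 and 0.51 in their deviations from the group means, and differently numbered ones between -0.55 and 0.53. Promoters are from the RefSeq table of GRCr8, used also for older symbols.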

Additional observations from a re-analysis of the deposited data

Results flagged for a closer look

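In 36 gene lists the scores of the 6 low libraries were examined for a library far from the other 5, and 7 lists had one by Dixon's test, where chance gives about 1 in 20; the oestrogen-responsive list is among the 7 only through ties. The score is the median over a list of log2(CPM + 1) relative to the mean of the low libraries. LER+LIG replicate 1 was the lowest on 5 lists: steroid receptors and coactivators at -0.92, prostaglandin pathway at -0.64, Wnt and BMP signalling at -0.44, endothelium at -0.39 and mucins and glycocalyx proteins other than Muc1 at -0.30. That library also had the fewest genes with a count, 14944, and whether this bears on the scores was not tested. LER replicate 1 was the highest on adipocyte genes at 3.96, with Adipoq at 183 CPM, Pck1 at 78.7 CPM and Cidec at 64.0 CPM. LER replicate 3 was the lowest on oestrogen-responsive genes at -0.20. On that list the other 5 low libraries were tied at 0.0, with Padi1 at 0 in all 6, so any other score would have stood apart, and this one says nothing about the library.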

How the results depend on the processing

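The split into 3 high and 6 low libraries was the same under each of the 3 other scalings tried. With a difference of medians of at least 1 required, 725 genes were higher and 459 lower without overlap in place of 1376 and 1131. Leaving out 1 library gave 1433 to 2030 higher and 1167 to 1972 lower genes, since fewer libraries overlap less. Counts of genes that differed 2-fold in both treatments ran from 705 to 1019 higher and from 367 to 548 lower over the alternatives. They have no value without NER replicate 3 or LER+LIG replicate 1. Under other scalings, filters and pseudocounts, and with 1 library left out, 2004 of 2100 values of named genes moved by less than the spread between libraries. No gene without overlap changed sign, but only another scaling could have changed it. Leaving out 1 library, another filter or another pseudocount cannot reverse a gene without overlap, so the kept sign says nothing about stability there. Of the 2100 values, 150 without the filter and 150 with a mean of at least 5 CPM could not move. A filter leaves a gene's own difference unchanged, so they show nothing about stability. Of the list medians 440 of 504 moved by less than the spread between libraries, and mast cells turned to -0.0045 without the filter. With 1 library left out the medians of cholesterol synthesis (-0.27 without NER replicate 3), collagens, neutrophils, implantation, tight junction, transport, secretory and mitochondrially encoded genes changed sign, so these 8 lists have no stable direction. With DESeq2 the labelled contrasts called 2, 303 and 14 genes. LER+LIG against LER called 1 gene without the filter and 0 to 1 with 1 library left out. For C3 in that contrast edgeR's adjusted p ran from 0.14 to 0.82, with a log2 fold change of 6.34 to 9.13, and for Calca from 0.14 to 0.91, with -6.05 to -0.93. The replicate block called 0 genes in each contrast, and pairing of the libraries by number was not shown. Depth limits genes near 3 counts, 0.195 to 0.227 CPM per library.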

Other observations

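Several strong differences lay outside the lists and the rule for named genes and were chosen here after their values were seen. Among barrier and surface genes, Ehf, an epithelial transcription factor, was at 87.3, 66.3 and 64.6 CPM in the high libraries and at 1.37 to 6.69 CPM in the low ones. Serpinb5, the serpin maspin, was at 41.9, 13.5 and 38.9 CPM in the high libraries and at 0 to 1.76 CPM in the low ones, Slc14a1, a urea transporter, at 148, 29.7 and 88.9 CPM in the high libraries and at 0.282 to 1.80 CPM in the low ones, and the integrin subunit gene Itgb6 at 28.0, 143 and 42.3 CPM in the high libraries and at 1.63 to 3.43 CPM in the low ones. Fam3d was at 69.2, 64.8 and 35.7 CPM in the high libraries and at 0.350 to 0.847 CPM in the low ones. Among myeloid genes, Siglec1, a sialic acid receptor of macrophages, was at 126, 75.3 and 117 CPM in the high libraries and at 11.7 to 29.2 CPM in the low ones, Cybb, a subunit of the phagocyte oxidase, at 266, 208 and 399 CPM in the high libraries and at 54.0 to 100.1 CPM in the low ones, and Il1rn, the interleukin 1 receptor antagonist, at 46.3, 65.1 and 40.5 CPM in the high libraries and at 1.69 to 5.25 CPM in the low ones. In each of these 8 genes the 3 high libraries were above all 6 low ones, which was set by the choice. Fam3d, below 1 CPM in every low library, met the mean minimum through the high libraries alone and had to be higher.

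Among lower genes chosen in the same way, Gulo, the last enzyme of ascorbate synthesis in the rat, was at 0, 2.81 and 0 CPM in the high libraries and at 26.8 to 42.5 CPM in the low ones, and the urate oxidase gene Uox at 0.279, 0.703 and 0.982 CPM in the high libraries and at 9.72 to 109.8 CPM in the low ones. Orm1, a secreted acute-phase glycoprotein, was at 0, 5.97 and 7.63 CPM in the high libraries and at 34.3 to 289 CPM in the low ones. Tnc, the matrix protein tenascin C, was at 15.3, 8.71 and 9.97 CPM in the high libraries and at 51.5 to 193 CPM in the low ones, and Has2, a hyaluronan synthase, at 3.13, 0 and 6.04 CPM in the high libraries and at 25.0 to 38.7 CPM in the low ones. Gfra2, a receptor for the neurotrophic factor neurturin, was at 3.06, 10.5 and 3.17 CPM in the high libraries and at 30.7 to 51.8 CPM in the low ones, the cannabinoid receptor gene Cnr1 at 3.55, 9.63 and 2.64 CPM in the high libraries and at 34.8 to 80.9 CPM in the low ones and the neuropeptide gene Cartpt at 0, 0 and 0 CPM in the high libraries and at 1.12 to 20.6 CPM in the low ones. In each of these 8 genes the 3 high libraries were below all 6 low ones, which was set by the choice and shows nothing further about the treatments. Gulo, Uox and Cartpt met the mean minimum through the low libraries alone and had to be lower.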
